A study of Mus musculus with 20 samples.

Results

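Aminoacyl-tRNA synthetases are the enzymes that load each transfer RNA with its amino acid. Their transcripts were followed in the terminal ileum of mice fed a diet with or without tryptophan. Members were chosen by gene symbol alone: the cytosolic and mitochondrial symbols ending in -ars, -ars2 or -arsl2 for each amino acid, together with Eprs, Ears2, Fars2, Farsa, Farsb and Pars2. This gave 38 genes of 35204 in the table, of which 20 encode cytosolic enzymes, 17 encode mitochondrial enzymes, and Tarsl2 is a second threonyl-tRNA synthetase counted apart. All 38 had at least 0.5 CPM (counts scaled to the library total) in at least 1 mouse and were tested. RNA came from 20 female C57BL/6 mice, 7 weeks old at the start of feeding. For 3 weeks they were kept on a diet of free amino acids that contained tryptophan (control diet, CD) or lacked it (tryptophan-deficient diet, TDD). On each diet, 5 mice kept their microbiota under specific pathogen-free (SPF) conditions and 5 received ampicillin, vancomycin, metronidazole, neomycin and gentamycin in sweetened drinking water (ABX). The groups are thus CD, TDD, CD+ABX and TDD+ABX, with n = 5 in each, and every ± below is the SD over these 5 mice. Whether SPF mice drank sweetened water, and whether cage mates shared a group, is not given in the sources used here.

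A synthetase recognises its amino acid and the matching tRNA and joins them at the cost of ATP. Most amino acids have separate nuclear genes for the cytosolic and the mitochondrial enzyme, the latter by convention carrying the suffix 2, while Gars and Kars encode both forms and Qars and Eprs have no simple partner of this kind. When an amino acid runs short, uncharged tRNA activates the kinase GCN2 (Eif2ak4), which phosphorylates eIF2α and raises translation of ATF4, a transcription factor whose known targets include several cytosolic synthetases along with Asns, Trib3 and Chac1. Wars, the tryptophanyl-tRNA synthetase of the cytosol, is also known to be induced by interferon gamma. The study asked how the ileum responds to missing dietary tryptophan with and without a microbiota, and the synthetases are the enzymes that spend this amino acid in translation.

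Total estimated counts ranged from 36676963 to 58662617 per mouse. The tissue label was checked against markers of ileal enterocytes. Vil1 and Epcam, general epithelial markers, were high in all groups (3679 ± 685 and 1924 ± 387 CPM on CD), but Fabp6, the bile acid binding protein that defines the distal ileum, was low without ABX (1.17 ± 0.97 CPM on CD and 1.4 ± 1.58 on TDD). With ABX it stood at 41.6 ± 59.4 on CD and 20.1 ± 13.6 on TDD. Slc10a2, the ileal bile acid transporter, averaged 2.36 ± 1.02 CPM on CD and 5.89 ± 1.98 on TDD without ABX. With ABX it averaged 39.5 ± 27.25 on CD and 37.05 ± 16.7 on TDD. Whether the stretch of ileum sampled had a part in these differences was not tested.

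In TPM, a scale that accounts for transcript length, the cytosolic enzymes were the more abundant class. In a piece of tissue, fewer cells of a type and less RNA per cell cannot be told apart, and this holds for every level given here. Their 20 genes summed to 839 ± 60.3 TPM in CD mice and 780 ± 67.2 in TDD mice, against 911 ± 47.9 in CD+ABX and 1011 ± 85.2 in TDD+ABX mice. The mitochondrial enzymes without Lars2, which is described apart, summed to 216 ± 15.8, 194 ± 13.5, 218 ± 21.9 and 234 ± 10.2 TPM in the same order. The range of the cytosolic sum in TDD mice (670 to 847) lay below that in TDD+ABX mice (920 to 1147), and so did the mitochondrial one (170 to 205 against 225 to 248). The cytosolic sum was 3.63 to 4.24 times the mitochondrial one in CD mice and 4.02 to 4.62 times in TDD+ABX mice, so the ranges of this ratio overlapped.

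Levels of single synthetases spanned a wide range. After Lars2, the highest mean TPM over all mice belonged to Qars, the glutaminyl enzyme (155, range 129 to 176), and Nars, the asparaginyl enzyme (129, range 89.6 to 167), whose ranges overlapped. The lowest were Wars2 (3.34, range 2.30 to 4.18), Tarsl2 (3.20, range 2.12 to 4.32) and the methionyl enzyme Mars2 (1.85, range 1.21 to 2.48), and these neighbours overlapped as well. Wars, at 33.1 TPM (range 26.7 to 42.3), ranked 11 of 38. For 14 amino acids with 1 cytosolic and 1 mitochondrial gene, the ratio of the mean levels was highest for asparagine (22.4) and second for tryptophan, with Wars 9.92 times Wars2 and a range over mice from 7.31 to 14.7. It was near equal for histidine (1.02) and cysteine (0.896). Reads of Hars and Hars2 may be exchanged where the 2 genes overlap at their starts on opposite strands, since the sources used here do not say that counting used strand.

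**Figure D1:**
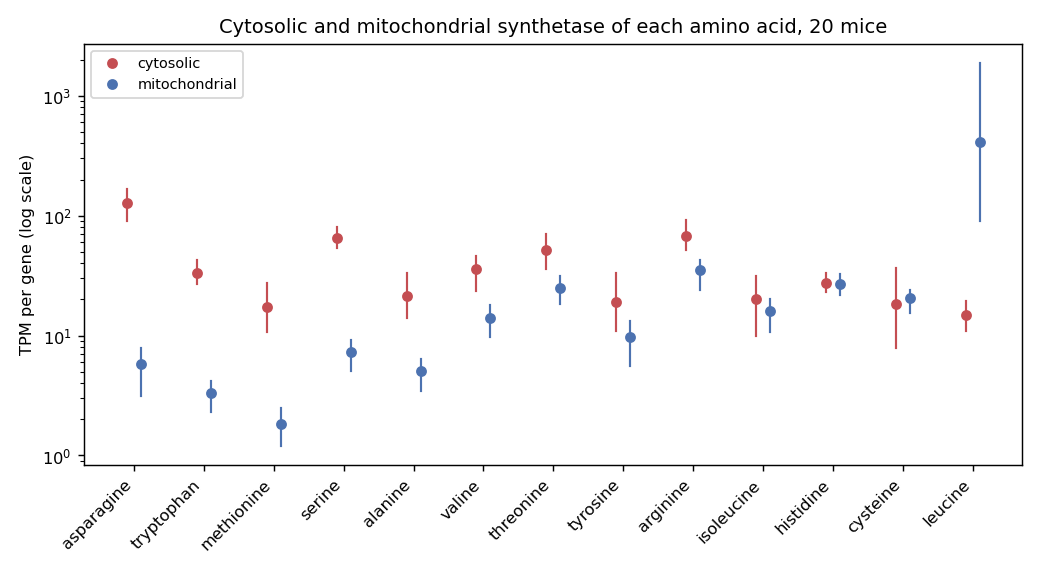
TPM per gene (log scale) of the cytosolic (red) and mitochondrial (blue) synthetase of 13 amino acids, ordered by their ratio. Points are means over 20 mice and lines run from the lowest to the highest mouse, and Wars stands at 33.1 TPM against 3.34 for Wars2.

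Neither synthetase for the amino acid that was removed passed edgeR's test over all 20 mice, while limma on TPM called Wars for ABX on TDD. Wars (ENSMUSG00000021266.16, chr12:108860030-108894174 on GRCm38, minus strand) was measured at 56.9, 69.3, 55.1, 53.1 and 67.3 CPM in the 5 CD mice and at 60.8, 62.6, 60.9, 61.6 and 63.3 CPM in the 5 TDD mice. The TDD mice lay within the spread of the CD mice. With ABX, Wars stood at 64.9, 64.3, 58.3, 68.5 and 63.1 CPM on CD and at 75.1, 66.6, 75.6, 71.2 and 59.8 on TDD. Here 3 of 5 TDD+ABX mice exceeded every CD+ABX mouse, and the groups overlapped. TDD against CD gave Wars a log2 fold change of 0.035 without ABX (95% interval -0.12 to 0.19, q = 0.804) and of 0.13 with ABX (-0.033 to 0.29, q = 0.46). In these comparisons q is the Benjamini-Hochberg adjusted p-value of edgeR's quasi-likelihood test over 16306 genes, and the intervals rest on 16 residual degrees of freedom. A p that misses the threshold does not show that the levels were equal.

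ABX were followed by log2 fold changes of Wars of 0.081 on CD (q = 0.552) and 0.17 on TDD (q = 0.127). The latter stood at 0.24 (q = 0.03) without TDD+ABX mouse 5, the lowest of its group. Wars2 (ENSMUSG00000004233.14, chr3:99141068-99239186, plus strand), the mitochondrial enzyme, averaged 9.04 ± 0.85, 8.84 ± 0.69, 8.70 ± 1.06 and 8.75 ± 0.95 CPM in CD, TDD, CD+ABX and TDD+ABX mice. Its log2 fold changes lay between -0.055 and 0.008 in the 4 pairwise comparisons. Of the transcripts of Wars, ENSMUST00000109848.9 averaged 15.4 ± 2.7 TPM on CD, 16.4 ± 4.2 on TDD, 21.3 ± 2.1 on CD+ABX and 23.6 ± 2.8 on TDD+ABX. Another coding transcript, ENSMUST00000161410.7, averaged 12.3 ± 2.7, 10.9 ± 3.2, 8.12 ± 1.94 and 9.06 ± 1.74 TPM. These transcripts were picked after their values were seen, and reads they share were divided by estimation, so no test is given.

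In SPF mice, TDD feeding lowered 7 synthetases and raised 1. Over all genes tested, 7.73% were lower and 6.70% higher at q under 0.05, beside 3 of 20 cytosolic and 4 of 17 mitochondrial members lower. The cytosolic members were Cars, Aars and Yars, and the mitochondrial ones Cars2, Fars2, Tars2 and Hars2, while the mitochondrial Iars2 was higher. All changes were below 2-fold, and no member passed a threshold of q under 0.05 with at least a 2-fold change, which 1.84% of genes passed. The groups did not overlap for 5 of the 7 lower members and for Iars2. Over all 38 members, called or not, TDD mice lay entirely below CD mice for 5 and entirely above for 1. Of all genes, 4.90% had TDD mice entirely below and 4.68% entirely above CD mice. The median log2 fold change was -0.054 for cytosolic and -0.14 for mitochondrial members without Lars2, beside 0.013 for all genes.

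**Figure D2:**
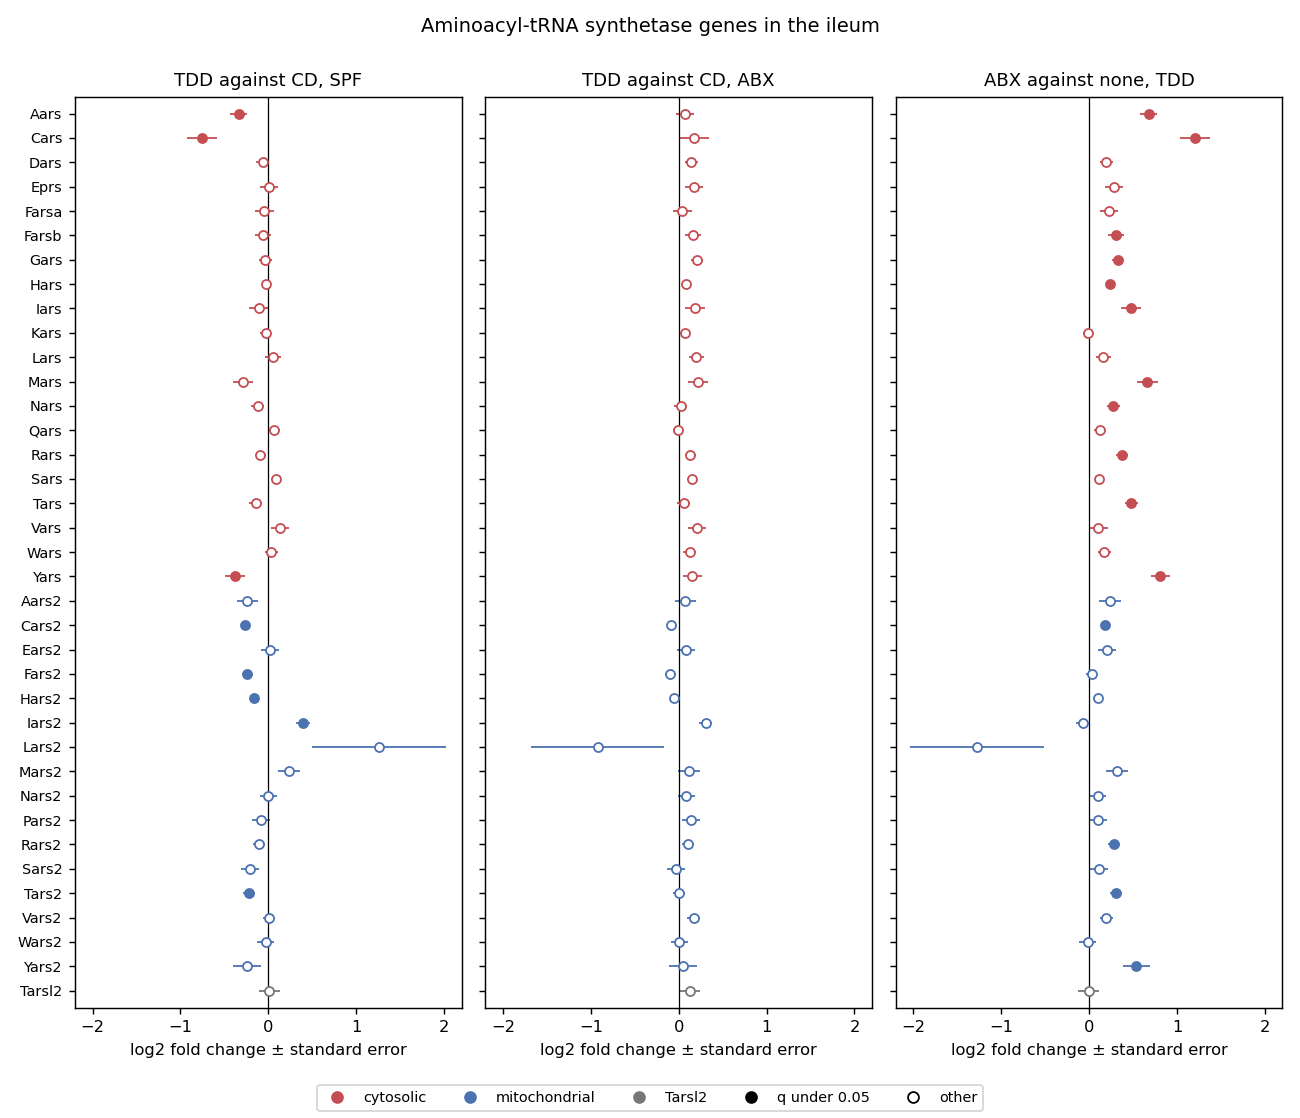
Log2 fold change with its standard error (horizontal axis) of 37 synthetase genes in 3 comparisons, from edgeR's fit. Red marks cytosolic, blue mitochondrial and grey Tarsl2, and filled points have q under 0.05, of which there were 8, 0 and 15 from left to right.

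Cars (ENSMUSG00000010755.17, chr7:143557230-143600090, minus strand), which charges cysteine, had the lowest log2 fold change of all members. It was measured at 20.8, 23.6, 18.9, 20.2 and 24.8 CPM in CD mice and at 11.8, 15.0, 11, 12.6 and 13.9 CPM in TDD mice. Every TDD mouse lay below every CD mouse, and the log2 fold change was -0.75 (standard error 0.17, q = 0.0063). Its mitochondrial counterpart Cars2 averaged 26.2 ± 1.01 CPM on CD and 21.8 ± 1.05 on TDD, again with no overlap (-0.26, standard error 0.04, q = 0.00075). Cysteine was thus the amino acid for which both enzymes were lower.

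Aars (ENSMUSG00000031960.14, chr8:111033144-111057664, plus strand), the alanyl enzyme, was measured at 77.4, 77.5, 67.1, 73.3 and 81.6 CPM in CD mice and at 61.2, 62.6, 54.5, 57.1 and 63.0 CPM in TDD mice, without overlap (-0.34, standard error 0.10, q = 0.0297). Yars (ENSMUSG00000028811.11, chr4:129189760-129219607, plus strand), the tyrosyl enzyme, stood at 23.4, 29.7, 23.1, 20.5 and 26.2 CPM on CD and at 17.8, 21.6, 17.3, 17.2 and 20.6 on TDD. The 2 highest TDD mice reached above the lowest CD mouse, and the log2 fold change was -0.38 (standard error 0.11, q = 0.0262). Among mitochondrial enzymes, the phenylalanyl Fars2 averaged 22.8 ± 0.94 CPM on CD and 19.3 ± 0.81 on TDD (-0.24, q = 0.0167), the threonyl Tars2 37.6 ± 2.88 and 32.4 ± 2.50 (-0.22, q = 0.0457), and the histidyl Hars2 29.1 ± 1.85 and 26.0 ± 0.52 (-0.17, q = 0.0223).

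Iars2 (ENSMUSG00000026618.11, chr1:185284726-185329396, minus strand), the isoleucyl enzyme of mitochondria, moved the other way. It was measured at 50.1, 57.9, 46.2, 47.4 and 54.9 CPM in CD mice and at 63.3, 62.1, 66.2, 72.4 and 74.3 CPM in TDD mice, all of them above the highest CD mouse (0.40, standard error 0.08, q = 0.00242). Its cytosolic counterpart Iars averaged 54.7 ± 5.71 and 50.6 ± 9.14 CPM and overlapped.

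Cars, Cars2 and Iars2 passed in each of 20 refits that dropped 1 mouse and under all 10 other settings. Fars2 passed in the 20 refits but not with limma on TPM, which also lost Yars, Hars2 and Tars2. Hars2 was also lost with the compared groups fitted alone, and Tars2 there, without the filter on low counts and with the replicate block. Hars2 no longer passed when CD mouse 1 was dropped (q = 0.0623), Yars when CD mouse 5 or any of TDD mice 1, 3 and 4 was (highest q 0.0649), and Aars when CD mice 1 or 5 or TDD mice 3 or 4 were (highest q 0.0674). Tars2 held in 11 of 20 fits (q from 0.0268 to 0.103, lost without CD mouse 1, 2, 3 or 5, any of TDD mice 1 to 4, or TDD+ABX mouse 2). Besides the synthetases, 4 of 6 plasma cell markers were higher on TDD (summed CPM 1667 to 2778 on CD and 1861 to 3657 on TDD), 3 of 5 macrophage markers were lower (78.4 to 98.0 and 44.8 to 69.2), and by edgeR 0 of 6 markers of proliferation passed, with 2 at an unadjusted p under 0.05 (403 to 549 and 262 to 445). No defining marker of these lists was at 0 in every mouse, and the part of these cells in the changes of the synthetases was not tested.

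**Figure D3:**
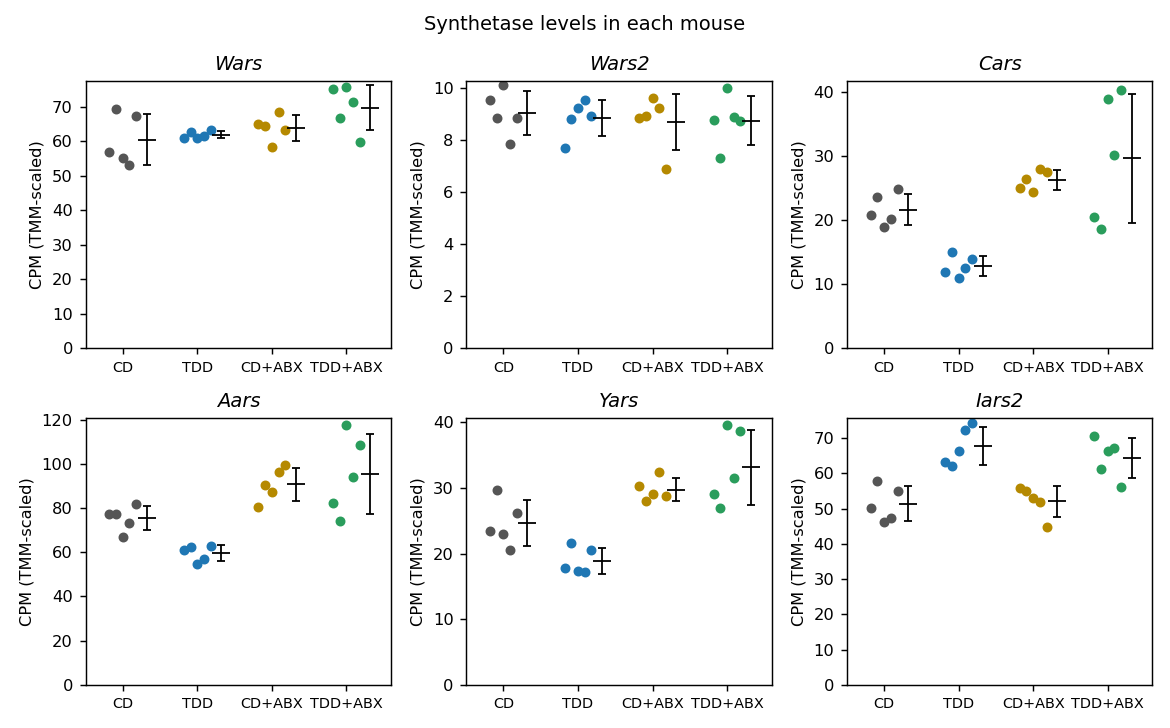
TMM-scaled CPM of 6 synthetases in each of 20 mice, by group, with the mean and SD beside the points. Cars and Aars in TDD mice lie below every mouse of the other groups, Iars2 is higher on TDD than on CD without overlap whether or not ABX were given, and Wars and Wars2 overlap between the diets.

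In ABX-treated mice, no synthetase passed the test between diets, where 0.681% of all genes were higher and 1.09% lower. By edgeR, 5 of 38 members had an unadjusted p under 0.05, all of them with higher means on TDD. Over all genes tested, 2416 of 16306 had such a p in either direction. DESeq2 called 1 member, Iars2. Iars2 was measured at 55.8, 55.0, 52.9, 51.9 and 44.8 CPM in CD+ABX mice and at 70.6, 61.3, 66.4, 67.2 and 56.1 CPM in TDD+ABX mice. The 5 TDD+ABX mice lay above the 5 CD+ABX mice, as in 2.35% of genes, and TDD against CD gave Iars2 0.31 on the log2 scale (standard error 0.08, q = 0.0535). The next highest values were those of Mars (0.22, q = 0.402) and Gars (0.21, q = 0.171), and the lowest after Lars2 were those of Fars2 (-0.096, q = 0.513) and Cars2 (-0.092, q = 0.343). When CD mouse 2 or TDD+ABX mouse 5 was dropped, 1 member was called. A threshold of at least 2-fold with q under 0.05 was passed by 0.331% of genes and by no member. The median log2 fold change was 0.15 for the cytosolic members, of which 19 of 20 had a value above 0, and 0.061 for the mitochondrial ones without Lars2, of which 10 of 16 did, beside -0.003 for all genes.

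The members that were lower on TDD in SPF mice had these values with ABX. Cars averaged 26.2 ± 1.57 CPM on CD+ABX and 29.7 ± 10.1 on TDD+ABX (log2 fold change 0.18), where single TDD+ABX mice ranged from 18.6 to 40.2. Aars averaged 90.7 ± 7.59 and 95.3 ± 18 (0.072) and Yars 29.8 ± 1.72 and 33.1 ± 5.70 (0.16). TDD+ABX mice 3 and 5 were the highest for these 3 genes and mice 1 and 2 the lowest.

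The difference between the diet effects in ABX-treated and SPF mice was tested directly. No member passed (q under 0.05 for 0.0368% of genes). By edgeR, 9 of 38 members had an unadjusted p under 0.05, beside 1452 of 16306 genes. Those with the lowest p were Cars (log2 difference 0.93, standard error 0.24, q = 0.156), Yars (0.53, standard error 0.16, q = 0.225), Mars (0.51, standard error 0.17, q = 0.312) and Aars (0.41, standard error 0.14, q = 0.332). DESeq2 called 1 member, Cars (q = 0.0234). Of the 37 members without Lars2, 34 had a value above 0, beside 7886 of 16306 genes.

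On CD, ABX raised 3 members and lowered none, where 5.35% of genes were higher and 7.43% lower. The threonyl Tars averaged 77.1 ± 4.84 CPM without and 93.7 ± 4.56 with ABX and did not overlap (0.28, standard error 0.07, q = 0.0163). The mitochondrial Mars2 averaged 13.0 ± 1.11 and 17.6 ± 2.18 (0.44, q = 0.0274) and Qars 170 ± 12.7 and 195 ± 13.3 (0.19, q = 0.0401), both with overlap. Mars2 held in 13 and Qars in 12 of 20 fits with 1 mouse left out, and only Tars was called without CD mouse 1, CD mouse 3 or CD+ABX mouse 4. With ABX on CD, 2 of 6 ileal enterocyte markers were higher and none lower. These were Fabp6 (5.14, q = 0.00431) and Slc10a2, the ileal bile acid transporter (4.07, q = 7.59e-05). All 5 macrophage and 4 of 5 T cell markers were lower. Of 6 plasma cell markers 2 were higher (Xbp1 and Sdc1) and 1 lower (Mzb1). Jchain (-0.54), Igha (-0.60) and Derl3 (-0.47) had lower means without passing, each at an unadjusted p under 0.05 by edgeR. The summed CPM of the 6 ran from 1667 to 2778 without and from 1167 to 1921 with ABX. By edgeR 0 of 6 B cell markers passed, all 6 having an unadjusted p under 0.05 (summed CPM 4.46 to 98.8 without and 2.34 to 7.75 with ABX). The part of these cells was not tested.

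On TDD, ABX raised 15 of 38 members and lowered none. Over all genes tested, 7.19% were higher and 8.30% lower. The 15 comprised 11 of the 20 cytosolic enzymes (Aars, Cars, Farsb, Gars, Hars, Iars, Mars, Nars, Rars, Tars and Yars) and 4 mitochondrial ones (Cars2, Rars2, Tars2 and Yars2). For 11 of the 15 the groups did not overlap. Over all 38 members, called or not, TDD+ABX mice lay entirely above TDD mice for 12 (31.58%), beside 5.97% of genes. The median log2 fold change was 0.28 for cytosolic and 0.15 for mitochondrial members without Lars2, beside -0.028 for all genes. This comparison uses the same TDD mice as the diet comparison in SPF mice, so the 5 genes on both lists (Aars, Cars, Cars2, Tars2 and Yars) are not independent evidence of a pattern.

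The highest value was that of Cars, at 11.8, 15.0, 11, 12.6 and 13.9 CPM in TDD mice and 20.4, 18.6, 38.9, 30.2 and 40.2 in TDD+ABX mice (log2 fold change 1.21, standard error 0.17, q = 0.000406). The groups did not overlap, and the 5 TDD+ABX mice fell into a wide spread. Yars followed at 29.0, 26.9, 39.6, 31.6 and 38.6 CPM in TDD+ABX mice (0.81, standard error 0.11, q = 0.000334). Aars, at 82.2, 74.3, 117.7, 94.0 and 108.5 CPM, rose by 0.68 (standard error 0.10, q = 0.000535). Mars, which charges methionine including that of the initiator tRNA, averaged 20.5 ± 3.32 CPM on TDD and 32.4 ± 5.43 on TDD+ABX (0.66, standard error 0.12, q = 0.00201). All 5 TDD+ABX mice were above all 5 TDD mice for each of these genes.

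The other cytosolic enzymes moved less. Tars averaged 69.8 ± 6.85 and 97.4 ± 10.1 CPM (0.48, q = 0.000645), Iars 50.6 ± 9.14 and 70.6 ± 7.61 (0.48, q = 0.00938), and Rars, the arginyl enzyme, 90.1 ± 5.49 and 117 ± 10.8 (0.38, q = 0.00159). The glycyl Gars changed by 0.33 (q = 0.00691), Farsb, the beta subunit of the phenylalanyl enzyme, by 0.31 (q = 0.0278), Nars by 0.27 (q = 0.0195) and the histidyl Hars by 0.24 (q = 0.00377). Of the mitochondrial enzymes, the tyrosyl Yars2 changed most, from 8.62 ± 1.63 to 12.5 ± 2.58 CPM (0.54, q = 0.0271), followed by Tars2 (0.31, q = 0.0085), Rars2 (0.29, q = 0.00978) and Cars2 (0.18, q = 0.0115). Farsb and Yars2 each held in 15 of 20 fits with 1 mouse left out, Nars was lost without TDD+ABX mouse 3 (q = 0.0528), and the others held in all 20. Farsb was lost without TDD mouse 1, 3 or 4 or TDD+ABX mouse 1 or 3 (q up to 0.0714), and Yars2 without TDD mouse 1 or 3 or TDD+ABX mouse 1, 2 or 3 (q up to 0.0726). With ABX on TDD, 4 of 6 plasma cell markers were lower and 1 higher (summed CPM 1861 to 3657 without and 1433 to 1841 with ABX) and 3 of 5 T cell markers were lower (26.2 to 38.6 and 15.5 to 27.2). Of 6 ileal enterocyte markers, 2 were higher (Fabp6 and Slc10a2) and none lower. Among 6 markers of proliferation 1 was higher, Pcna (262 to 445 and 375 to 588 summed CPM). B cell markers varied from 4.59 to 154 summed CPM among TDD mice and from 3.74 to 105 among TDD+ABX mice. The part of these cells in the rise of the 15 synthetases was not tested.

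Of the 8 cytosolic synthetases known to sit in the multi-synthetase complex (Eprs, Iars, Lars, Mars, Qars, Rars, Kars and Dars), 3 were higher with ABX on TDD (Iars, Mars and Rars), and so were 8 of the 12 outside it, where 7.19% of all genes were. On TDD in SPF mice, 0 of the 8 passed by edgeR, with 1 at an unadjusted p under 0.05, and 3 of the 12 were lower, where 7.73% of all genes were. The difference between the 8 and the 12 was not tested. By edgeR, 18 members were called in no comparison, among them Wars2, Lars2 and Kars. Of these 18, both DESeq2 and RLE scaling called Eprs (q = 0.0205 and 0.0408), Dars (q = 0.0301 and 0.0487) and Vars2 (q = 0.0198 and 0.0363) for ABX on TDD.

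Promoters were compared because 15 members moved together with ABX on TDD and ATF4 is known to bind CARE elements. RefSeq promoter sequences on GRCm38.p6, from 250 bases before to 50 after the annotated start, were found for 28 of 38 members, 13 of them cytosolic. Wars was not among them. The core TGATGNAA, read on both strands, matched in 5 of the 28, all cytosolic, and in 3.97% of 32851 promoters. The 5 were Aars, Gars, Iars, Tars and Yars, and all 5 were higher with ABX on TDD. So were 6 of the 23 members whose promoter held no match and 7.19% of all genes. Among cytosolic members alone, 2 of the 8 without a match were higher. A relation between match and change was not tested. The other 4 of the 15 have no entry in the promoter table. Each match follows as 30 bases in the direction of transcription around its match in capitals, since these letters are what the genes share. The core of the interferon-stimulated response element, GAAANNGAA, matched in 1 of 28 (Qars, 8.56% of promoters) and the gamma-activated site TTCNNNGAA in 3 of 28 (Aars, Kars and Nars2, 8.30%). A match of letters is a description and not a binding site.
Yars, chr4:129189895-129189924, plus strand: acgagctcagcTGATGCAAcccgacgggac
Gars, chr6:55037960-55037989, plus strand: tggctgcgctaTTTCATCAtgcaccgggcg
Iars, chr13:49682126-49682155, plus strand: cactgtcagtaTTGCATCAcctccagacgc
Tars, chr15:11399655-11399684, minus strand: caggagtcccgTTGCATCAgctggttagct
Aars, chr8:111033840-111033869, plus strand: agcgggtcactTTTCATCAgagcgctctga

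Aars held 2 matches, the second of them 112 bases upstream of the start. It is shown in the 250 bases before the start (chr8:111033592-111033841, plus strand), with the match in capitals, because Aars was the only member with a match this far upstream. In Gars and Tars the match began 30 and 15 bases before the start, and in Yars, Iars and at the other site of Aars it began 3, 7 and 9 bases after it. Cars, with the highest value of the 15, has no entry in the promoter table.
Aars, upstream: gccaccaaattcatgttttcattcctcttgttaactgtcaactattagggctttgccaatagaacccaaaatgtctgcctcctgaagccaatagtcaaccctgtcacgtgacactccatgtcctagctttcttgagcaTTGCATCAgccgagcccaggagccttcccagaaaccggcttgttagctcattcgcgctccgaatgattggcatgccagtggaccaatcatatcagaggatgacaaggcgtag

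Lars2 (ENSMUSG00000035202.8, chr9:123366927-123462666, plus strand), the mitochondrial leucyl enzyme, stood apart from all other members. Its counts ranged from 13367 to 207194 per mouse, a 21.8-fold range in CPM (262 to 5703), while the same range for the other members had a median of 1.57-fold and reached at most 3.66-fold. The highest mouse of each group had 1688 CPM in CD mouse 2, 5703 in TDD mouse 4, 4233 in CD+ABX mouse 1 and 1384 in TDD+ABX mouse 2. Between 80.8% and 99.2% of its counts were assigned to ENSMUST00000217116.1, annotated as a target of nonsense-mediated decay. The fitted log2 fold changes (TDD against CD, 1.26 without and -0.92 with ABX) therefore describe mainly this transcript, and neither passed the test.

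The coding transcript of Lars2, ENSMUST00000038863.8, behaved differently. It was measured at 20.3, 21.6, 19.1, 18.9 and 20.1 TPM in CD mice and at 9.32, 16, 13.8, 14.3 and 16.3 TPM in TDD mice, with no overlap (log2 difference of means in TPM + 1, -0.51; two-sided exact permutation test, p = 0.007937, the smallest p that 5 against 5 mice allow, adjusted over 4 comparisons 0.03175). With ABX it averaged 18.9 ± 3.83 TPM on CD and 16 ± 2.44 on TDD (exact permutation p = 0.254). This test was added after the values of the gene had been seen, and the split of reads between the transcripts is an estimate.

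**Figure D4:**
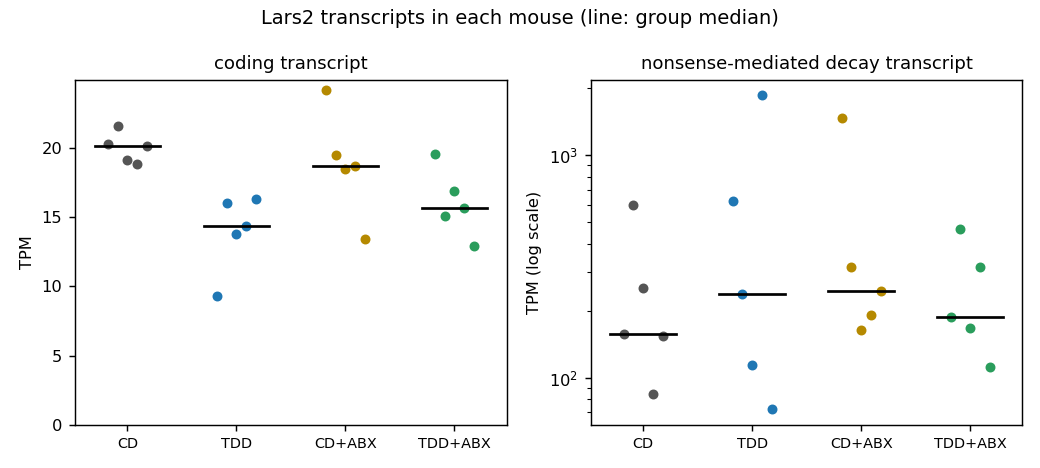
TPM of the coding transcript of Lars2 (left, linear axis) and of its nonsense-mediated decay transcript (right, log axis) in each mouse, with the group median as a line. The coding transcript lies at 18.9 to 21.6 TPM in CD and 9.32 to 16.3 in TDD mice, whereas the other spans 72.4 to 1855 TPM.

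Genes that work beside the synthetases were followed as lists. Of 13 partners in charging, 1 rose and 2 fell on TDD in SPF mice, numbers too small to set against the 6.70% and 7.73% of all genes. Aimp1, a scaffold of the multi-synthetase complex, averaged 44.7 ± 2.51 CPM on CD and 54.3 ± 2.57 on TDD (0.28, q = 0.000852), whereas Aimp2, another scaffold, averaged 23.6 ± 0.88 and 20.8 ± 0.47 (-0.18, q = 0.0338). Gatb, a subunit of the mitochondrial glutaminyl-tRNA amidotransferase, fell from 10.8 ± 0.70 to 8.83 ± 0.95 CPM (-0.30, q = 0.028). None of the 13 passed between diets with ABX by edgeR, where 1 had an unadjusted p under 0.05. On TDD, ABX raised 3 of them, where 7.19% of all genes were higher.

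Of 8 elongation factors, which carry charged tRNA to the ribosome or move it along, 3 rose and 1 fell on TDD in SPF mice, and 2 rose in ABX-treated mice. Over all genes tested, 6.70% were higher and 7.73% lower in SPF mice, and 0.681% were higher in ABX-treated mice. Eef2, the translocase, averaged 2155 ± 77.4 CPM on CD and 2705 ± 194 on TDD (0.33, q = 0.00173), and 2177 ± 76.2 and 2634 ± 147 with ABX (0.28, q = 0.0293). Eef1a1, which delivers charged tRNA in the cytosol, changed by 0.29 in both settings (q = 0.00909 and 0.0403). Its mitochondrial counterpart Tufm fell from 99.4 ± 6.64 to 78.9 ± 7.31 CPM in SPF mice (-0.33, q = 0.0051). In SPF mice, 25 of 75 mitochondrial ribosomal protein genes were lower and none higher (median -0.14), where 7.73% of all genes were lower, and by edgeR 0 of them passed in ABX-treated mice (8 at an unadjusted p under 0.05). On TDD, ABX raised 34 of the 75 (median 0.18), where 7.19% of all genes were higher.

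In the sensing of amino acids, Atf4 fell on TDD in SPF mice from 186 ± 17.4 to 147 ± 10.9 CPM (-0.34, q = 0.0371). Its TDD mice lay entirely below the CD mice, as in 4.90% of genes. With ABX, Atf4 stood at 220 ± 23.5 CPM on CD and 214 ± 38.8 on TDD (-0.044, q = 0.885). Impact, an inhibitor of GCN2, rose from 16.4 ± 2.07 to 20.5 ± 1.58 CPM in SPF mice (0.33, q = 0.0287). These were the 2 of 6 genes of this list that passed on TDD in SPF mice, where 6.70% of all genes were higher and 7.73% lower. With ABX 0 of 6 passed by edgeR (0 at an unadjusted p under 0.05). ABX on TDD raised 3 of the 6, Atf4 among them (0.54, q = 0.00319), where 7.19% of all genes were higher.

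Of 29 known ATF4 targets other than synthetases, 28 were tested. In SPF mice TDD raised 7 and lowered 3, and in ABX-treated mice it raised 11 and lowered 1, with medians of 0.31 and 0.48. Of all genes, 6.70% were higher and 7.73% lower in the former and 0.681% and 1.09% in the latter. Trib3, a pseudokinase that restrains the response, averaged 10.3 ± 2.10 CPM on CD and 23.9 ± 3.55 on TDD in SPF mice (1.22, q = 0.00112), and 13.2 ± 4.89 and 24.3 ± 5.62 with ABX (0.89, q = 0.0411). Aldh18a1, which makes the precursor of proline, fell from 356 ± 61.6 to 144 ± 17.1 CPM in SPF mice (-1.30, q = 1.11e-05), and Aldh1l2, a mitochondrial folate enzyme, rose from 1.92 ± 0.41 to 8.69 ± 4.82 (2.18, q = 0.000528). Chac1, which degrades glutathione, averaged 1.28 ± 0.83 CPM on CD and 0.363 ± 0.111 on TDD in SPF mice (-1.78, q = 0.0437), but 0.941 ± 0.521 and 8.90 ± 8.16 in ABX-treated mice (3.23, q = 0.00573). The difference between these effects passed the test (5.01, q = 0.0433), but no gene passed it under RLE scaling. Nupr1, a stress-induced chromatin protein, fell in both settings (-0.88, q = 0.0026, and -1.01, q = 0.00689), and Slc7a5, which carries large neutral amino acids including tryptophan into cells, rose with ABX from 7.20 ± 0.54 to 18.8 ± 8.71 CPM (1.38, q = 0.0138).

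**Figure D5:**
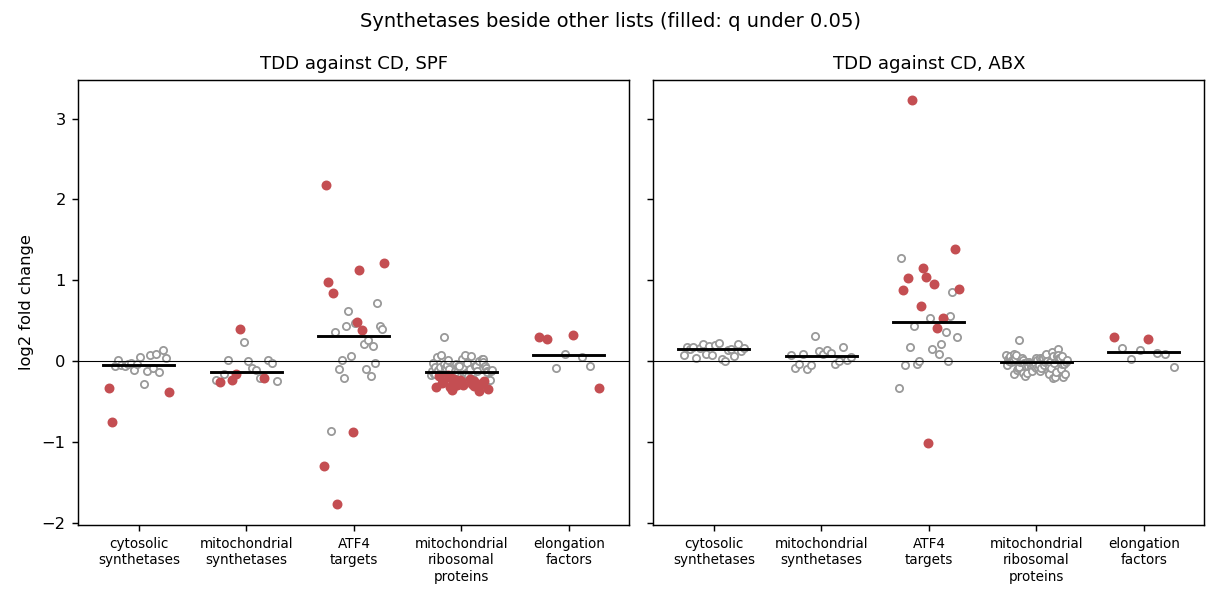
Log2 fold change of TDD against CD in SPF (left) and ABX-treated mice (right) for each gene of 5 lists, with Lars2 left out. Filled points have q under 0.05 and bars are list medians, at -0.054 and 0.15 for the cytosolic synthetases and 0.31 and 0.48 for the ATF4 targets.

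Genes of the interferon gamma response were followed because Wars belongs to the genes this cytokine induces. On TDD, 15 of 18 fell in SPF mice (median -0.64), where 7.73% of all genes did, among them Cxcl9 (8.24 ± 1.69 to 2.70 ± 0.82 CPM), Gbp3 (19.4 ± 5.35 to 9.48 ± 1.62) and Gbp2 (21 ± 1.79 to 14.6 ± 1.34), while Wars did not pass. Across mice, with group means removed, Wars was compared with genes of this response and of the amino acid response in log2(CPM + 1) over 20 mice. Pearson's r was -0.079 for Irf1, 0.0088 for Cxcl9, 0.43 for Chac1, 0.39 for Asns and -0.32 for Trib3 (two-sided permutation within groups, adjusted p over 6 at least 0.3754). Spearman's rho was highest for Asns at 0.49 (permutation p = 0.0435, adjusted 0.2611), and r for Asns was 0.40 without the 2 mice farthest from the median. None of the relations passed the adjustment.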

How the data were processed

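Poly-A RNA of 20 ileum samples was sequenced, and the authors assigned reads to the GRCm38 mouse transcriptome with kallisto 0.44.0. The authors deposited 1 table of estimated counts by gene. For every mouse they also deposited TPM and estimated counts by transcript. Estimated counts were rounded, scaled by TMM and tested with edgeR 4.0.16 (R 4.3.3), the 4 groups in 1 quasi-likelihood fit, over the 16306 genes that reached 0.5 CPM in 1 mouse or more. Calls needed an adjusted p (Benjamini-Hochberg q) under 0.05. CPM are TMM-scaled, and TPM were summed per gene through GENCODE M21, which matched 98.46% of transcripts. Limma 3.58.1 and DESeq2 1.42.0 served as alternatives, and permutation tests used scipy 1.17.1 (100000 permutations where not exact). The labels number the mice of each group without stating pairs.

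The members and lists were chosen with earlier results of these data known. Named were Wars, Wars2, members called in any comparison and the 3 highest and 3 lowest in each diet comparison, and of other lists up to 3 genes with the lowest p per diet comparison. Other genes of lists (Atf4, Chac1, Tufm, Eef1a1, Aimp2, Gatb, Impact, Vil1, Epcam, Fabp6, Sdc1, Jchain, Igha) were chosen after their values were seen where they fell outside this rule. Counts per gene equalled the transcript sums for all 38 members. Depth is given as the total estimated count per mouse. The p-values of edgeR weigh differences of group means against the spread between mice within groups. Results of 2 genes are not reported here.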

Additional observations from a re-analysis of the deposited data

Results flagged for a closer look

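Of 92 groups of 5 mice tested for a single mouse far from the rest, 7 held one by Dixon's criterion, and chance alone marks about 1 group in 20. High mice were CD+ABX mouse 4 for Gars (88.76 CPM), TDD+ABX mouse 3 for Iars (83.75 CPM) and Nars (311.9 CPM), and CD+ABX mouse 1 for Lars2 (4233 CPM). Low mice were TDD+ABX mouse 2 for Fars2 (15.95 CPM) and CD+ABX mouse 5 for Iars (52.11 CPM) and Wars2 (6.883 CPM).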

How the results depend on the processing

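Of the counts of synthetases called, that of TDD against CD in SPF mice (8) was 4 and 4 with limma on log2(TPM + 1) and log2(TPM + 0.1), and 5 to 8 with 1 mouse left out (5 without CD mouse 1, CD mouse 5, TDD mouse 3 or TDD mouse 4). In ABX-treated mice it was 1 with DESeq2, 1 with RLE scaling and 0 to 1 with 1 mouse left out. For ABX on CD (3) it was 5 with DESeq2, 0 and 0 with limma, and 1 to 3 with 1 mouse left out. For ABX on TDD (15) it was 24 and 24 with limma and ranged from 12 (without TDD+ABX mouse 3) to 20 (without TDD+ABX mouse 5). The difference of diet effects gave 1 member with DESeq2 and 0 with any mouse left out. Over all genes, calls in ABX-treated mice were 288 with edgeR and 613 with DESeq2, and for the difference of diet effects 6 and 134, with 0 under RLE scaling and 10 under limma. For Wars, TDD against CD in SPF mice gave -0.012 on the log2 scale under both limma settings and -0.007 to 0.081 with 1 mouse left out. With ABX on TDD Wars had 0.258 and 0.265 with limma, which passed, and 0.154 to 0.236 with 1 mouse left out. The r of Wars with 1 mouse left out ran from -0.171 to 0.142 for Cxcl9, which was -0.008 with log2(CPM + 0.1), from -0.264 to 0.084 for Irf1 and from 0.261 to 0.59 for Asns. With limma on log2(TPM + 1) and log2(TPM + 0.1), the median log2 fold change for ABX on TDD was 0.374 and 0.383 for cytosolic members (0.278 with edgeR) and 0.262 and 0.282 for mitochondrial ones without Lars2 (0.146), where the median of all genes was 0.055 with log2(TPM + 1) and -0.028 with edgeR. For the difference of diet effects it was 0.278 for cytosolic members with log2(TPM + 0.1) (0.181 with edgeR) and 0.263 and 0.301 for mitochondrial ones (0.151). The other 91 class medians moved by less than the spread between mice. The cause of these shifts was not tested. Same-numbered mice showed no consistent correlation of their deviations from group means (30 pairs of same-numbered mice, correlation -0.419 to 0.289, 6 above 0.1). This does not exclude that the numbers pair mice, since the sources used here do not give cages. In the order above, 7, 0, 2, 13 and 0 members were called with the replicate block. With the replicate block Wars had 0.037, 0.127, 0.082, 0.172 and 0.09. Other named members kept their call in 237 of their values under the other settings and lost it in 23.

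Precision rests on 5 mice a group. Levels of Lars2 follow 1 transcript, and reads shared between transcripts were divided by estimation. The fit of the compared groups alone was not run for the difference of diet effects, which needs all 4. Leaving Lars2 out of the table and testing its coding transcript were chosen after seeing the data.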
